A study of Rattus norvegicus with 4 samples.

Results

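The genes described here encode chromatin remodelers and the enzymes that write or remove histone methylation, with the acetyltransferases p300 and CBP, bromodomain proteins, ASXL proteins and TET dioxygenases beside them. They were chosen by gene symbol alone, and 81 of the 24005 genes in the deposited table matched. Of these 81, 77 were among the 15282 genes with enough counts to be tested. The other 4 were Smarcb1, Kdm4d, Kdm4dl2 and Smarce1l, with at most 5 counts in any library.

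Remodelers use ATP to slide or evict nucleosomes, the DNA-wrapped histone spools of chromatin. Histone methyltransferases mark lysines of histone tails, demethylases remove those marks, and the site marked sets whether a gene tends to be active (H3K4, H3K36) or silent (H3K9, H3K27). In chondrocytes such enzymes are known to take part in differentiation and in the control of matrix and matrix-degrading genes. Most of them are large proteins with long transcripts, which bears on how their counts can be read here.

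Cartilage came from male Sprague Dawley rats aged 8 to 12 weeks and weighing 140 to 230 g, 2 labelled healthy with the treatment label control and 2 labelled osteoarthritis with the treatment label XGS, the herbal preparation Xiaogu San. By the series' title, osteoarthritis was induced with monosodium iodoacetate, which blocks glycolysis and damages cartilage in the joint. No library is labelled untreated osteoarthritis, so disease and preparation cannot be told apart, and the design text speaks of normal mice although every sample is labelled rat. Nothing in the labels says that the 2 samples of a group came from separate animals, so p-values reflect only how these samples varied, and that variation may be technical.

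Chondrocyte genes were present in every library, but other cell types moved with the groups. Of 11 tested chondrocyte markers, 7 lay below both controls in both osteoarthritis libraries and 4 overlapped. The summed level of the 11 was 20444 and 34476 CPM (counts scaled to library size) in control against 4034 and 6140 CPM in osteoarthritis. Col2a1 alone had 13919 and 26813 CPM in the controls. Acan, Col11a1 and Sox9 had positive log2 fold changes (1.36, 1.77 and 1.58), with osteoarthritis replicate 1 below and replicate 2 above both controls. The log2 fold changes of the other 8 were negative. All 20 cell division markers, 10 of 11 erythroid, 11 of 11 neutrophil and 9 of 10 B cell markers lay below both controls as well. The summed erythroid level was 37313 and 32034 CPM in the controls and 460 and 1268 CPM in the osteoarthritis libraries; that of the neutrophil list was 7691 and 12045 against 125 and 645 CPM, and that of the B cell list without Ebf1, a gene set apart after its values were seen, 385 and 533 against 21.3 and 39.1 CPM. Ebf1, the B cell marker above both controls, had 127 and 106 CPM in the controls and 679 and 273 CPM in the osteoarthritis libraries, and with it the list summed to 512 and 639 against 700 and 313 CPM. Adipocyte markers summed to 8053 CPM in osteoarthritis replicate 1 and 66.7 CPM in replicate 2 (controls 1649 and 667 CPM), and tendon markers to 629 and 11854 CPM (controls 6655 and 4957 CPM). Skeletal muscle markers summed to 2502 and 103 CPM in the controls and 152 and 432 CPM in the osteoarthritis libraries, and endothelial markers to 941 and 434 against 1409 and 876 CPM. In bulk samples, fewer cells of a type and less RNA per cell cannot be told apart. The part of these cell types in the results below was not tested.

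As a group the chromatin genes were higher in osteoarthritis, by about as much as other genes of their length. By edgeR's quasi-likelihood test, adjusted over the whole table, 0 of 77 passed the threshold in either direction, as did 0 of all genes tested (percent called 0 in both directions), and the smallest adjusted p of a chromatin gene was 0.0835. With an unadjusted p under 0.05, 21 of the 77 were higher and 2 lower in that test, where 12.2% of all tested genes were higher and 11.2% lower. Among the 500 tested genes outside the set nearest in length to each, the mean shares in that test were 23.5% higher and 5.05% lower. DESeq2 called 12 higher and 1 lower, where it called 7.24% of all genes higher and 8.26% lower. In both osteoarthritis libraries the level exceeded that of both controls for 50 of the 77 (64.9%) and was below both for 4 (5.19%), and over all tested genes these shares were 30.0% and 26.5%. The median log2 fold change, osteoarthritis over control, was 0.68 for the chromatin genes and 0.15 for all tested genes. The summed level was 3860 and 3931 CPM in the controls and 5870 and 6965 CPM in the osteoarthritis libraries. The values of each gene in the 4 libraries are in the plot by role.

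**Figure D1:**
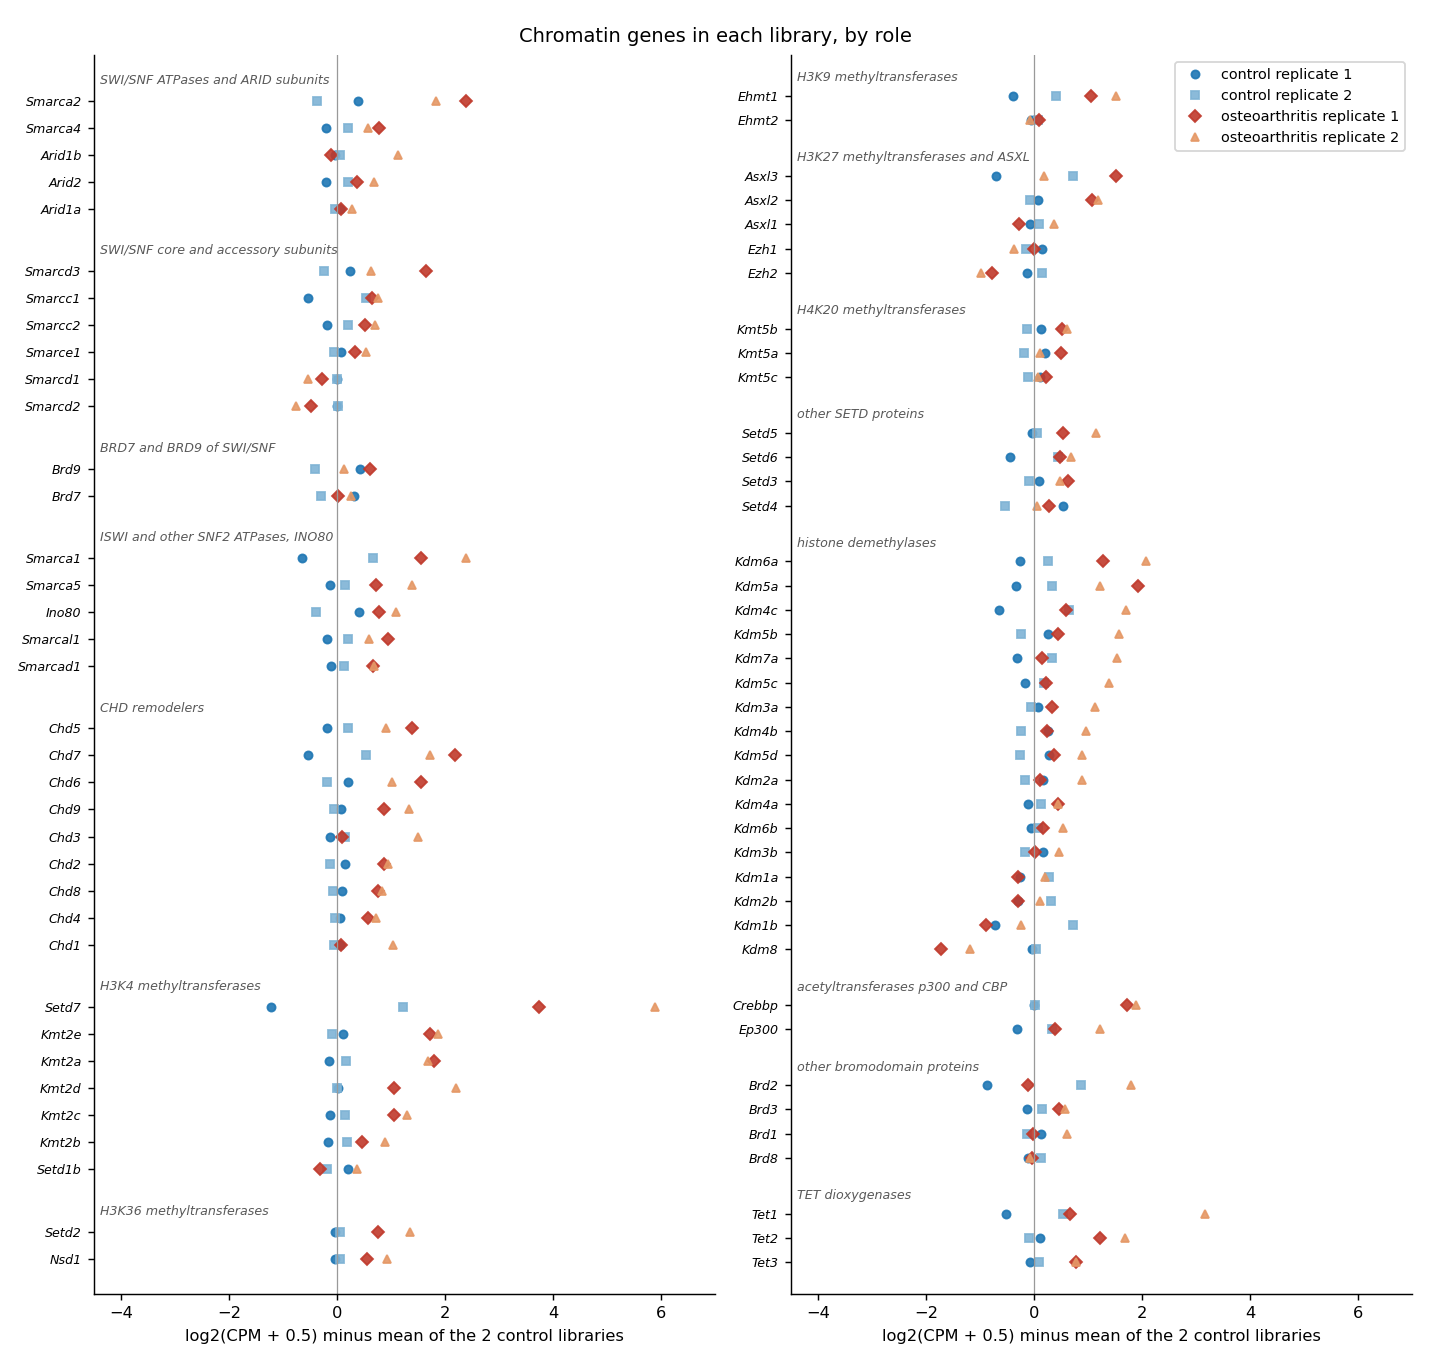
The tested chromatin genes in each library (1 gene not shown), as log2(CPM + 0.5) minus the mean of both controls, grouped by role. Blue points are the control and red or orange points the osteoarthritis libraries; for most genes both osteoarthritis points lie to the right of both control points, and for 4 (Kdm8, Ezh2, Smarcd2 and Smarcd1) both lie to the left.

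Long genes of every kind were higher in the osteoarthritis libraries and short genes lower. The deposited counts and FPKM values imply 1 length per gene, with a median of 2560 bases over all tested genes and 5618 bases over the chromatin genes, which ranged from 1881 (Smarcd3) to 19465 bases (Kmt2d). Of the 77, 37 (48.1%) fell in the longest decile of tested genes. In that decile, of 5782 bases or more, the median log2 fold change of all genes was 0.92 and 55.8% lay above both controls. In the shortest decile, up to 1055 bases, it was -0.89 and 60.5% lay below both. The 39 tested cytosolic ribosomal protein genes, with a median length of 581 bases, had a median of -1.20, and 37 of them lay below both controls.

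A slope in the same direction was present in both osteoarthritis libraries, steeper in replicate 2, and hardly any between the controls. Against the control mean, the shortest decile stood at -0.70 in osteoarthritis replicate 1 and -1.03 in replicate 2, and the longest decile at 0.64 and 0.95. Control replicate 2 minus replicate 1 was 0.20 in the shortest and 0.02 in the longest decile. Across the 77 chromatin genes, Pearson's r of log2 fold change and log2 length was 0.24 and Spearman's rho 0.45; across all 15282 tested genes they were 0.30 and 0.38. These are correlations across genes of the same 4 libraries, and the genes are not independent replicates. The medians by decile of length show the slope for each library.

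**Figure D2:**
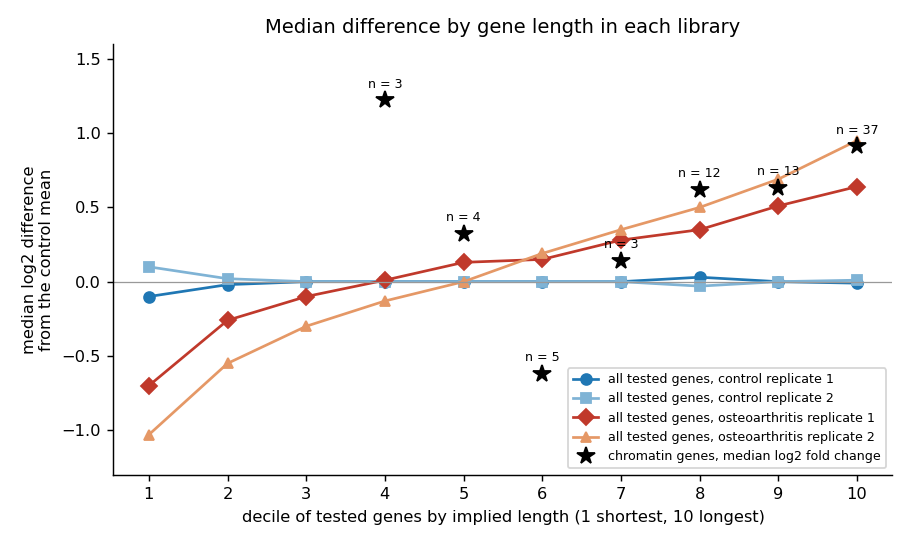
Median log2 difference from the control mean for all tested genes, by decile of implied length (1 shortest, 10 longest), in each of the 4 libraries (lines), with the median log2 fold change of the chromatin genes in each decile (stars, with their number). Both osteoarthritis lines climb with length, and the star of the 37 chromatin genes in the longest decile, 0.91, lies beside the 0.92 of all genes there.

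Set against genes of the same length, the chromatin genes did not stand out as a group. Each was compared with the 500 tested genes outside the set that were nearest in implied length. The median difference in log2 fold change was -0.05, with 38 genes above and 39 below the median of their neighbours. The difference was smaller than the SD of 0.0713 between replicate libraries. By library, the members' median against their neighbours was 0.00 in osteoarthritis replicate 1 and 0.13 in replicate 2. Of the 77, 28 lay above their neighbours in both osteoarthritis libraries, 25 below in both, and 24 were split. Within the quartiles of their neighbours lay 56 genes, with 12 above and 9 below. The sign of the group's small difference moved with the setting, from -0.16 without control replicate 1 to 0.20 on log2(FPKM + 1).

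The share of genes whose libraries did not overlap differed more from that of the neighbours. On average 47.1% of the neighbours lay above both controls and 12.6% below both, and 51.6% and 12.6% of neighbours with a mean of at least 5 CPM, against 64.9% and 5.19% of the chromatin genes. With the length offset, a fit that removes the trend with length from each library, 16 chromatin genes (20.8%) lay above both controls and 18 (23.4%) below both. Over all genes that fit had 25.8% above and 25.6% below. Of the 67 chromatin genes with a positive log2 fold change, 26 had a negative one with the length offset. The median of the chromatin genes was then 0.06 and that of all genes 0.08, and the smallest adjusted p of a chromatin gene by edgeR was 0.174. At an unadjusted p under 0.05, 5 were higher (Setd7, Smarca2, Kmt2e, Crebbp and Smarcd3) and 3 lower (Kdm8, Ezh2 and Asxl1), where that fit had 8.28% of all genes higher and 9.72% lower.

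**Figure D3:**
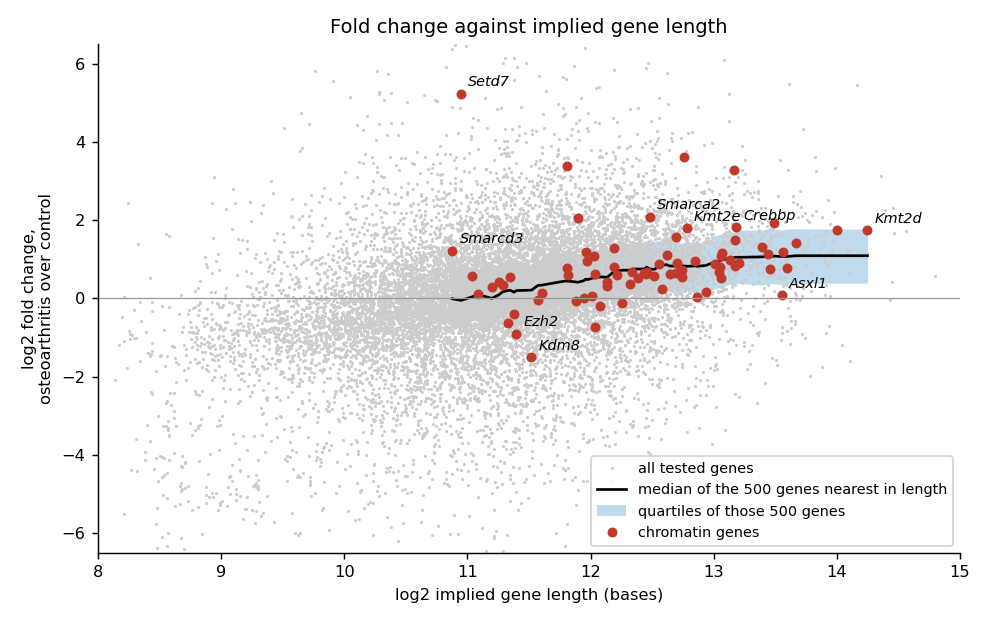
Log2 fold change against log2 implied length for all tested genes (grey) and the 77 chromatin genes (red), with the median (line) and quartiles (blue band) of the 500 genes nearest in length to each. Most red points follow the line; Setd7, Smarca2, Crebbp, Kmt2e and Smarcd3 lie above the band and Kdm8, Ezh2 and Asxl1 below it.

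SWI/SNF is the remodeler with the most members here. Its motor is either Smarca4 (BRG1) or Smarca2 (BRM), and the large ARID subunits guide it to DNA. Smarca2 had 46.1 and 26.9 CPM in the controls and 185 and 127 CPM in the osteoarthritis libraries, and its log2 fold change was 2.09 ± 0.43 (SE; edgeR adjusted p = 0.0982). Both osteoarthritis libraries were far above both controls, and 86.6% of the genes nearest in length had a smaller fold change. Smarca4 had 90.4 and 120 CPM in the controls and 179 and 155 CPM in the osteoarthritis libraries (0.67 ± 0.34, adjusted p = 0.306), which was close to the 0.80 of its neighbours in length. Arid1a, the largest subunit of the canonical complex, had 157 and 147 CPM in the controls and 160 and 183 CPM in the osteoarthritis libraries (0.17 ± 0.33, adjusted p = 0.804). Its libraries only just did not overlap, and with the length offset its log2 fold change was -0.69. Arid1b was at 0.65 and Arid2, the ARID subunit of the PBAF form, at 0.52, both below the 0.75 and 0.97 of their neighbours.

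The Smarcd subunits, which link the complex to transcription factors, went different ways. Smarcd3, the form of heart and muscle, had 19.7 and 14 CPM in the controls and 52.7 and 25.8 CPM in the osteoarthritis libraries (1.22 ± 0.47, edgeR adjusted p = 0.207), while its neighbours in length had a median of -0.01. Its log2 fold change was 0.59 without osteoarthritis replicate 1 and 1.66 without replicate 2. Smarcd2, which granulocytes need to mature, had 153 and 155 CPM in the controls and 110 and 90.8 CPM in the osteoarthritis libraries (-0.62 ± 0.32, adjusted p = 0.310). Smarcd1 had 38.6 and 38.8 CPM in the controls and 31.6 and 26.5 CPM in the osteoarthritis libraries (-0.41 ± 0.31, adjusted p = 0.472). So both controls lay below both osteoarthritis libraries for Smarcd3 and above them for Smarcd1 and Smarcd2. The neutrophil markers, 11 of 11 of which lay below both controls in the same libraries, moved with Smarcd2, and their part in its lower level was not tested. The scaffold subunits Smarcc1 and Smarcc2 were at 0.61 and 0.60 and Smarce1 at 0.43, all above both controls. Smarcb1, a core subunit that SWI/SNF complexes carry in most cells, was listed with 0 counts in both controls and in osteoarthritis replicate 2 and with 1 in osteoarthritis replicate 1. The annotation used for counting is not known here, so these counts do not show that its transcript was missing. Brd7 and Brd9, which mark the PBAF and the non-canonical form, were at 0.11 and 0.33 with overlapping groups. Brd9 had 40.1 and 22.4 CPM in the controls and 46.1 and 32.6 CPM in the osteoarthritis libraries (0.33 ± 0.42, edgeR adjusted p = 0.689).

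Of 14 further SWI/SNF subunits tested, 4 lay above and 7 below both controls, with a median of -0.29 at a median length of 2298 bases, and 0 passed edgeR's test. Bcl7a (-1.81 ± 0.41) and Bcl11a (-2.21 ± 0.51), a transcription factor also used by B cells, had the smallest p of that list. Of the B cell markers, 9 of 10, those other than Ebf1, lay below both controls in the same libraries, and their part was not tested. The SWI/SNF genes given here thus had fold changes of both signs. Their lengths differ as well, and whether the directions differ beyond the trend with length was not tested.

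The ISWI motors, which space nucleosomes, and the related ATPases lay above both controls in 5 of 5 cases, where 30.0% of all tested genes and 47.1% of the length neighbours of the chromatin genes did. Smarca1 (SNF2L) had 1.48 and 4.45 CPM in the controls and 8.65 and 15.9 CPM in the osteoarthritis libraries (2.05 ± 0.79, edgeR adjusted p = 0.207). Its paralogue Smarca5 (SNF2H) had 37.9 and 45.9 CPM in the controls and 68.8 and 109 CPM in the osteoarthritis libraries (1.08 ± 0.37, adjusted p = 0.175). Of the genes of their length, 91.4% and 72.4% had smaller fold changes. Ino80, the motor of the complex that exchanges the histone variant H2A.Z, was at 0.89, Smarcal1, an annealing helicase of stalled replication forks, at 0.78, and Smarcad1 at 0.68.

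All 9 CHD remodelers had a positive fold change, and 8 lay above both controls. Of all tested genes 30.0% lay above both, and of those in the longest decile 55.8%. The median log2 fold change of the CHD genes was 0.95. The median of their single differences from genes of their own length was only 0.06. With the length offset, 4 of them (Chd1, Chd2, Chd4 and Chd8) were negative. Chd7, the gene of CHARGE syndrome, had 6.79 and 14.8 CPM in the controls and 47.3 and 34.3 CPM in the osteoarthritis libraries (1.92 ± 0.50, edgeR adjusted p = 0.129), above 78.2% of its neighbours. Chd6 was at 1.31, Chd9 at 1.13, Chd2 at 0.90, Chd8 at 0.80 and Chd1 at 0.63. Chd4, the main motor of the NuRD repressor complex and the CHD gene with the highest level per length, had 233 and 218 CPM in the controls and 333 and 369 CPM in the osteoarthritis libraries (0.64). Chd3, its paralogue, overlapped between the groups (69.4 and 84.8 against 81.8 and 216 CPM). Chd5 had 0 and 4 counts in the controls and 29 and 13 in the osteoarthritis libraries, too few for more than a direction. Of 27 other remodeler genes tested, 12 lay above and 9 below both controls, with a median of 0.25, and the smallest p belonged to Gatad2b of NuRD (2.33 ± 0.48) and Atrx (1.68 ± 0.31).

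The H3K4 methyltransferases, which mark promoters and enhancers, had the highest median of the role groups with more than 3 members, 1.74. Above both controls lay 6 of 7, where 30.0% of all tested genes and 55.8% of those in the longest decile did. Kmt2e (MLL5), a relative with little or no methyltransferase activity of its own, had 124 and 108 CPM in the controls and 379 and 424 CPM in the osteoarthritis libraries (1.79 ± 0.36, edgeR adjusted p = 0.0982). Kmt2a (MLL1) had 38.1 and 47.4 CPM in the controls and 149 and 138 CPM in the osteoarthritis libraries (1.75 ± 0.32, adjusted p = 0.0881). In both, the libraries of a group were close together and the groups far apart. Kmt2d, an enhancer methyltransferase and the longest member, had 81.7 and 80.9 CPM in the controls and 168 and 373 CPM in the osteoarthritis libraries (1.74 ± 0.49, adjusted p = 0.140). Against genes of like length, Kmt2e was above 83.2%, Kmt2a above 74.4% and Kmt2d above 74.2%. Kmt2c was at 1.18 and Kmt2b at 0.68 ± 0.34 (48.9 and 62.7 against 76.0 and 102 CPM, adjusted p = 0.296), and with the length offset they were at 0.09 and -0.24. Setd1b overlapped between the groups and was at 0.04, below the 0.82 of its neighbours.

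Setd7, which adds a single methyl group to H3K4 and to other proteins, had the largest fitted fold change of the set, and is a short gene (1977 bases). It had 0 and 58 counts in the controls and 443 and 1587 in the osteoarthritis libraries, or 0, 2.22, 15 and 68.6 CPM, with a log2 fold change of 5.23 ± 1.82 (SE) and an adjusted p of 0.181 by edgeR. Both groups varied widely within themselves, and the fitted value depends on how a count of 0 is treated; without 1 library it ranged from 3.77 to 13.14. Genes of its length had a median of -0.05. Of 11 COMPASS core genes and cofactors, the shared subunits of these enzymes, 3 lay above and 3 below both controls, with a median of -0.10. Their median length was 2780 bases, against 8450 for the 7 H3K4 genes above, counting Kmt2e. Their median difference from genes of their own length was -0.06, against 0.65 for those 7. With the length offset the median log2 fold changes were 0.01 and 0.33, and the difference between these lists was not tested. Among the COMPASS genes Ncoa6 (1.42 ± 0.40) and Pagr1 (-1.09 ± 0.36) had the smallest p.

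For H3K36, a mark of transcribed gene bodies, Setd2 had 44.4 and 47.6 CPM in the controls and 77.8 and 117 CPM in the osteoarthritis libraries (1.08 ± 0.34, edgeR adjusted p = 0.160), and Nsd1 was at 0.75; their neighbours were at 0.98 and 1.07. For the silencing mark H3K9, Ehmt1 (GLP) and Ehmt2 (G9a), which work as a pair, differed. Ehmt1 had 7.99 and 14.2 CPM in the controls and 22.6 and 31.5 CPM in the osteoarthritis libraries (1.29 ± 0.47, adjusted p = 0.193). Ehmt2 had 144 and 158 CPM in the controls and 160 and 142 CPM in the osteoarthritis libraries, and its log2 fold change was 0.00 ± 0.32 (adjusted p = 0.998), with overlapping groups. For H4K20, Kmt5a, which is tied to the cell cycle, had 83.3 and 63.4 CPM in the controls and 103 and 77.8 CPM in the osteoarthritis libraries (0.30 ± 0.34, adjusted p = 0.647). Kmt5b was at 0.57 (32.0 and 26.6 against 41.8 and 44.9 CPM, adjusted p = 0.333) and Kmt5c at 0.14 (57.8 and 49.4 against 62.3 and 56.1 CPM, adjusted p = 0.827), so only Kmt5b of these 3 lay above both controls.

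The other SETD proteins include enzymes whose main targets are not histones. Setd5 was at 0.88 ± 0.36 (79.9 and 85.5 against 120 and 184 CPM, edgeR adjusted p = 0.226), Setd3, which methylates actin, at 0.55, Setd6, which methylates the NF-kB subunit RelA, at 0.57, and Setd4 at 0.07. The first 3 lay above both controls, and Setd4 overlapped.

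The enzymes of H3K27 trimethylation, the Polycomb mark, were the role group furthest below genes of their length, with a median of 0.08 and a median difference of -0.74 together with the ASXL proteins. Ezh2, the catalytic subunit of dividing cells, had 39.2 and 47.9 CPM in the controls and 25.1 and 21.7 CPM in the osteoarthritis libraries (-0.90 ± 0.32, edgeR adjusted p = 0.187). Ezh1, the form of resting cells, had 78.4 and 63.8 CPM in the controls and 70.2 and 54.4 CPM in the osteoarthritis libraries (-0.19 ± 0.32, adjusted p = 0.776). Only Ezh2 was below both controls. All 20 cell division markers lay below both controls in the same libraries, summing to 1191 and 1655 CPM in the controls and 186 and 413 CPM in the osteoarthritis libraries, and their part in the lower Ezh2 was not tested. Of 27 Polycomb cofactors tested, 7 lay above and 6 below both controls, with a median of 0.02; Cbx6 (2.09 ± 0.32) and Cbx2 (-2.34 ± 0.63), both readers of the mark, had the smallest p.

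The ASXL proteins activate the deubiquitinase BAP1, which removes the other Polycomb mark. Asxl1 had 63.7 and 71.3 CPM in the controls and 55.5 and 87.2 CPM in the osteoarthritis libraries (0.08 ± 0.35, edgeR adjusted p = 0.926), although genes of its length of 12026 bases had a median of 1.07. Asxl2 had 23.7 and 21.4 CPM in the controls and 47.8 and 51.9 CPM in the osteoarthritis libraries (1.15 ± 0.30, adjusted p = 0.130), close to the 0.98 of its neighbours. Asxl3 had 0 and 22 counts in the controls and 54 and 10 in the osteoarthritis libraries. With the length offset the log2 fold changes of Asxl1 and Ezh2 were -1.04 and -1.02.

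Histone demethylases were the largest role group, with 17 of 19 tested, a median of 0.63 and a median difference from genes of their length of -0.10. Above both controls lay 8, below both 1, and 8 overlapped. Of the length neighbours of the chromatin genes, 47.1% lay above and 12.6% below on average, and of all tested genes 30.0% and 26.5%. Kdm5a, which removes H3K4 methylation, had 41.2 and 65.8 CPM in the controls and 199 and 121 CPM in the osteoarthritis libraries (1.58 ± 0.44, edgeR adjusted p = 0.136), above 79% of its neighbours. Its relatives Kdm5b, Kdm5c and the Y-linked Kdm5d were at 1.11, 0.91 and 0.63, with osteoarthritis replicate 2 the highest library for each. Kdm3a, a hypoxia-induced H3K9 demethylase, was at 0.79 and Kdm4a at 0.43.

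Kdm8 was the demethylase family member furthest the other way. This protein, also called JMJD5, had 569 and 550 raw counts in the controls and 173 and 201 in the osteoarthritis libraries (-1.50 ± 0.46, edgeR adjusted p = 0.154), and 9% of the genes of its length had a smaller fold change. The controls were close together and both osteoarthritis libraries far below them. Kdm1b was at -0.73, but control replicate 2 (35.9 CPM) stood apart from control replicate 1 (12.9 CPM), and without control replicate 2 the log2 fold change was 0.21. Kdm1a (LSD1), which acts in repressor complexes, was at -0.05 and Kdm2b, which brings Polycomb to CpG islands, at -0.12, both overlapping.

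The H3K27 demethylases had very different depth. Kdm6b (JMJD3), an inducible enzyme of inflammation, had 87.7 and 96.8 CPM in the controls and 103 and 133 CPM in the osteoarthritis libraries (0.36 ± 0.32, edgeR adjusted p = 0.557), below the 0.72 of its neighbours. Kdm6a (UTX) had 1 and 7 counts in the controls and 31 and 51 in the osteoarthritis libraries (3.39 ± 1.72, adjusted p = 0.303). Its counts are so low that the size of the change is poorly known. Brd2, with 53 and 193 counts in the controls and 103 and 336 in the osteoarthritis libraries, was also low and varied as much within the groups as between them.

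CBP and p300 are paralogous acetyltransferases that mark active enhancers, and they are of nearly the same implied length, 9312 and 9258 bases. Crebbp (CBP) had 36.1 and 36.6 CPM in the controls and 120 and 136 CPM in the osteoarthritis libraries, and its log2 fold change was 1.82 ± 0.31, with the smallest adjusted p of the set (edgeR, 0.0835). Ep300 (p300) had 41.8 and 65.5 CPM in the controls and 68.8 and 122 CPM in the osteoarthritis libraries (0.83 ± 0.43, adjusted p = 0.314). The replicates of Crebbp were close together, whereas those of Ep300 differed almost as much as the groups. Genes of that length had a median of 1.05, so Crebbp lay above them and Ep300 below. Of 15 other acetyltransferase genes tested, 8 lay above and 3 below both controls (median 0.54), with Kat6b at 1.93 ± 0.38 and Hat1, which acetylates newly made histones, at -1.66 ± 0.32.

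Of the other bromodomain proteins, Brd3, a BET protein that reads acetylated histones, was at 0.51. Brd1 was at 0.32 and Brd8 at -0.07 (33.1 and 39.0 against 34.7 and 34.0 CPM, edgeR adjusted p = 0.923), both with overlapping groups.

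TET dioxygenases oxidise 5-methylcytosine and so start DNA demethylation. Tet2 had 30.8 and 26.7 CPM in the controls and 66.9 and 93.4 CPM in the osteoarthritis libraries (1.48 ± 0.34, edgeR adjusted p = 0.111). Tet3 had 31.1 and 34.9 CPM in the controls and 56.6 and 56.7 CPM in the osteoarthritis libraries (0.78 ± 0.30, adjusted p = 0.203). Tet1 had 0 and 14 counts in the controls and 19 and 138 in the osteoarthritis libraries (3.60 ± 2.21, adjusted p = 0.386). All 3 lay above both controls, but Tet3 was below the 1.07 of its neighbours in length and Tet1 rests mostly on 1 library. Of 10 genes of the DNA methylation machinery, 4 lay above and 3 below both controls. Dnmt3a, which sets new methylation, was at 1.90 ± 0.41, and Uhrf1, which copies methylation at replication, at -2.48 ± 0.59, beside the lower cell division markers given above.

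In the remaining lists, 6 of 20 other histone methyltransferases lay above and 5 below both controls (median -0.03), and by p the first were Suv39h1 (-1.35 ± 0.40) and Ash1l (1.62 ± 0.38). Of 5 other demethylases, 2 lay above and 0 below (median 0.58), with Jmjd1c at 1.33 ± 0.39 and Phf8 at 0.58 ± 0.38. Of 19 histone deacetylases and their corepressors, 7 lay above and 4 below (median 0.18), with Sirt7 at -1.44 ± 0.34 and Ncor1 at 1.98 ± 0.41. In the 9 lists of further chromatin genes edgeR's quasi-likelihood test called 0 genes. Over all tested genes, 30.0% lay above both controls and 26.5% below both. The median length of 8 of these 9 lists is below that of the 77. The median difference from genes of their own length was negative in all 9. It ran from -0.04 for the other acetyltransferases to -0.41 for the further SWI/SNF subunits.

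Levels per length, in FPKM (counts scaled by gene length and library total), ranked differently in the groups. In control, Smarcd2 was the highest of the 77, with a mean of 57.8 FPKM, followed by Ehmt2 (37.0), Chd4 (32.9), Kmt5a (30.3) and Smarce1 (30.0). In osteoarthritis the highest was Kmt2e, with 59.3 FPKM, followed by Chd4 (55.1), Smarce1 (43.4), Smarcc2 (42.1) and Smarcd2 (41.3). Kmt2e had been at rank 14 in control. The median level was 6.24 FPKM in control and 11.5 FPKM in osteoarthritis, and 9 genes stayed under 5 FPKM in every library. The deposited FPKM values use the column total, without TMM scaling. Genes are therefore compared here by rank within a group, and the medians of the groups are not scaled to each other. The trend with length was not removed from these ranks.

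Ratios of paralogues within a library are independent of how the libraries are scaled, and where both genes are of like length a trend with length cannot move them much. Of 18 pairs fixed for this, 16 had both genes tested. The log2 ratio of FPKM did not overlap between the groups in 10, 8 with the first gene relatively higher in osteoarthritis and 2 with it lower; for single genes, 56.5% did not overlap. The ratio of Smarca2 to Smarca4 (5722 and 5618 bases) was -1.0 and -2.18 in control and 0.01 and -0.31 in osteoarthritis. So the BRM transcript was below that of BRG1 in the controls and near it in osteoarthritis. The ratio of Ep300 to Crebbp was 0.22 and 0.85 in control and -0.79 and -0.15 in osteoarthritis, that is, p300 was the more abundant in both controls and CBP in both osteoarthritis libraries. The ratio of Smarca1 to Smarca5 (3811 and 4168 bases) was -4.55 and -3.24 in control and -2.86 and -2.65 in osteoarthritis. These 3 pairs are the closest in length among those whose groups were apart.

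Other pairs with groups apart differ more in length. The ratio of Ezh1 to Ezh2 (4324 and 2699 bases) was 0.32 and -0.27 in control and 0.80 and 0.64 in osteoarthritis. That of Smarcd1 to Smarcd3 (2664 and 1881 bases) was 0.47 and 0.97 in control and -1.24 and -0.46 in osteoarthritis, so here the shorter gene was the one relatively higher in osteoarthritis. The mean ratio of Ehmt1 to Ehmt2 differed by 1.33 between the groups, that of Kmt2a to Kmt2b by 1.08, that of Tet2 to Tet3 by 0.68 and that of Kmt5b to Kmt5c by 0.43. In the Tet pair too the shorter gene, Tet2, was the one relatively higher. Kdm6a to Kdm6b was apart as well, on very few counts of Kdm6a. Pairs that overlapped included Arid1a and Arid1b, Smarcc1 and Smarcc2, Kmt2c and Kmt2d, Kdm5a and Kdm5b, and Chd3 and Chd4. With 2 libraries against 2 none of these ratios could pass an exact permutation test, so they stand as descriptions.

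**Figure D4:**
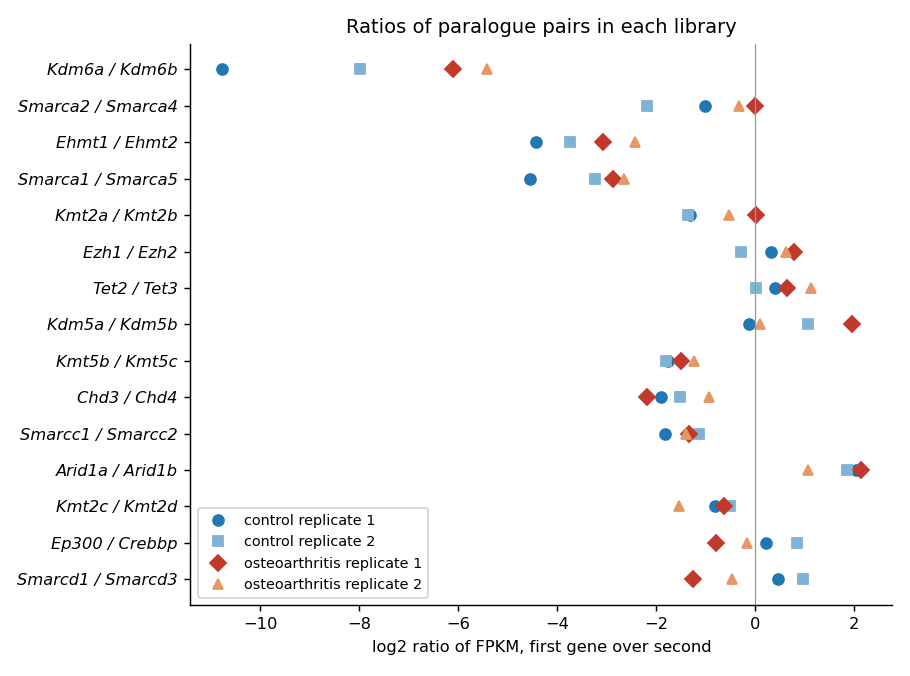
Log2 ratio of FPKM of the first gene over the second for the tested paralogue pairs (1 pair not shown), 1 point per library, ordered by the difference between the group means. Smarca2 over Smarca4 lies at or below -1.0 in control and at -0.31 and 0.01 in osteoarthritis, and Ep300 over Crebbp is above 0 in both controls and below 0 in both osteoarthritis libraries.

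Promoters are shown for Crebbp and Kdm8, the members with the smallest p among the higher and the lower, and for Ezh2, to set beside the cell division markers. They run from 250 bases before to 50 after the annotated start, 5′ to 3′, from the RefSeq table of build GRCr8: Crebbp at chr10:11842090-11842389 (plus strand), Kdm8 at chr1:189444382-189444681 (plus strand) and Ezh2 at chr4:77687134-77687433 (minus strand). Capitals mark letters that match a motif named in the next paragraph, on either strand.
Crebbp: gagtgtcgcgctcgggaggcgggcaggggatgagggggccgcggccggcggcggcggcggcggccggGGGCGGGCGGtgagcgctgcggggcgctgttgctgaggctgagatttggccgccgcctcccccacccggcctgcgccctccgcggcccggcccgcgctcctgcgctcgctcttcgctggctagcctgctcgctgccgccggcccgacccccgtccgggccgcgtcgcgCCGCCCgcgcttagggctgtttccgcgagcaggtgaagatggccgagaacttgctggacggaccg
Kdm8: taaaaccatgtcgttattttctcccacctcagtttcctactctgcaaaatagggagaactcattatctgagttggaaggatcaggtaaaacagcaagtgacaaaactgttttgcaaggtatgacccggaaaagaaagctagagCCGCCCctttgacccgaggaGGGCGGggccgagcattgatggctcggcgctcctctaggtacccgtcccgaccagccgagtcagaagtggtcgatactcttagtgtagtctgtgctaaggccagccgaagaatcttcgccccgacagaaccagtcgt
Ezh2: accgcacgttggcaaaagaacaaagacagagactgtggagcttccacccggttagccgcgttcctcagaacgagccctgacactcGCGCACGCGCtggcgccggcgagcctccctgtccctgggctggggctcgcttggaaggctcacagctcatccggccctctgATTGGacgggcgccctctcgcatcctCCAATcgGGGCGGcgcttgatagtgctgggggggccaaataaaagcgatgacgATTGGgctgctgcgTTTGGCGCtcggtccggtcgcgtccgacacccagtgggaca

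In 66 members with a promoter in that table, the median number of CpG was 28.5 per 300 bases, against 20 in the 10962 promoters of tested genes. The GC box (GGGCGG) was in 77.3% of member promoters and 59.8% of those of tested genes. An E2F motif (TTTCCCGC or TTTGGCGC), the site type of cell division genes, was in 5 member promoters (7.58%, against 2.71%): Ezh2, Smarcd1, Smarce1, Arid1a and Kmt5c. Of these 5, Ezh2 and Smarcd1 lay below both controls and Smarce1 and Arid1a above both. The NRF1 motif was in 13.6% against 9.12%, the CCAAT box (CCAAT) in 33.3% against 37.4%, the ETS motif (CCGGAAGT) in 1.52% against 7.31%, the cAMP response element (TGACGTCA) in 1.52% against 2.99% and the TATA box (TATAAA) in 3.03% against 7.46%. Each motif was searched on both strands, and a promoter with any match was counted once. Overlapping matches appear as a single run of capitals in the sequences shown. The 3 promoters shown share the GC box and hold 48 (Crebbp), 16 (Kdm8) and 30 (Ezh2) CpG; Crebbp was higher and Kdm8 and Ezh2 lower in osteoarthritis. A match is a description of the letters, not of a bound site.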

How the data were processed

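Cartilage RNA of 4 rat samples was grouped by the disease label. The submitters' processing notes name fastp, TopHat and the human build hg38, while the symbols are rat; the sources used here do not give the counter or the annotation. The authors deposited raw counts per gene and FPKM values for the same 24005 genes; counts divided by FPKM and column total gave 1 implied length per gene in all libraries (relative difference under 1e-08), so FPKM is no independent measurement. Depth was 24492412 to 28270779 counts per library.

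Counts were fitted over the whole table with edgeR 4.0.16 in R 4.3.3 (filterByExpr, 15282 genes; TMM; quasi-likelihood F test, two-sided; Benjamini-Hochberg, threshold 0.05). CPM were computed on TMM-scaled library sizes; the SE of a log2 fold change is its size divided by the root of F. With 2 samples against 2, an exact permutation test cannot pass the threshold and none was run. Alternatives were DESeq2 1.42.0, limma 3.58.1, further scalings and filters, the likelihood ratio test of edgeR, log2(FPKM + 1) and log2(FPKM + 0.1), leaving out each library, and a per-library loess offset on log2 implied length (span 0.3), called the length offset. The scripts were tested on simulated data. The members, role groups, lists and pairs were chosen with earlier results of these data known. Any member may be named; full statistics are given for the higher and the lower member of each role group whose unadjusted p was smallest, for a fixed list of core enzymes and for both genes of each paralogue pair whose ratio did not overlap between the groups; from each further list up to 2 genes with the smallest unadjusted p are named. Of 81 symbols, 80 matched a RefSeq symbol and 1 a synonym (GRCr8). Values of 1 member are not reported here; it is kept in the counts.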

Additional observations from a re-analysis of the deposited data

How the results depend on the processing

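The counts of called genes depended on the tool and the libraries. Against 0 and 0 in the main fit, DESeq2 called 1107 genes higher and 1262 lower (12 and 1 of them chromatin genes), edgeR's likelihood ratio test 965 and 978 (8 chromatin genes higher), the fit with no filter on low counts 677 and 751 (9 higher) and the fit on genes with at least 10 counts in every library 20 and 109. Leaving out 1 library, edgeR's quasi-likelihood test called 0 to 1297 genes higher, 0 to 1105 lower and 0 to 14 chromatin genes higher; the calls came without osteoarthritis replicate 1 (14) or replicate 2 (8), where the lone library is assumed to vary like the control group.

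With the length offset, 16 chromatin genes lay above and 18 below both controls and their median was 0.06. Leaving out 1 library, 6 to 9 lay below, against 4 with all. Over all tested genes, 33.3% to 36.8% lay below in those fits, against 26.5% with all libraries. The median of the chromatin genes was 0.50 to 0.81 in those fits, and the lowest, 0.50, was without osteoarthritis replicate 2. The median of all genes was 0.27 with library size alone and 0.05 with upper quartile factors, against 0.15. The difference from genes of the same length, -0.05, was 0.04 with 100 or 1000 neighbours, -0.06 with neighbours of at least 5 CPM (chosen after seeing the data), 0.02 on log2(FPKM + 0.1), 0.20 on log2(FPKM + 1) and -0.16 to 0.15 without 1 library. The cause was not tested.

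Of the 35 genes that the naming rule covers, 22 kept their direction in every setting run and 13 did not. With the length offset Arid1a was at -0.69, Asxl1 at -1.04, Ep300 at -0.15, Kdm6b at -0.27, Kmt2b at -0.24, Kmt5b at -0.13, Kmt5c at -0.09, Setd5 at -0.03 and Tet3 at -0.31. Members outside the rule whose positive value is printed and that were negative with the length offset were Arid2 (-0.39), Arid1b (-0.07), Nsd1 (-0.31), Chd1 (-0.15), Chd2 (-0.06), Chd4 (-0.13), Chd8 (-0.11), Setd1b (-0.82), Setd4 (-0.36), Kdm4a (-0.09), Kdm5d (-0.06), Brd1 (-0.22) and Brd3 (-0.15). Genes near 0 changed sign elsewhere. Asxl1 was at -0.01 with at least 10 counts, -0.04 with upper quartile factors, and -0.27 to 0.33 without 1 library. Brd8 was at 0.05 with library size alone, 0.04 and 0.03 on log2 FPKM and -0.24 to 0.07 without 1 library, and Brd9 at -0.02 to 0.76. Ehmt2 was at 0.13, 0.10 and 0.10 with the former 3 settings, 0.01 with no filter, and -0.12 to 0.09 without 1 library. Genes with under 100 counts in both controls (Setd7, Tet1, Kdm6a, Chd5, Asxl3) are limited by depth there, and counting intervals cover counting error only. No paired analysis was possible because the labels number no replicates.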
